A study of Mus musculus with 10 samples.

Results

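The material described here is the first m6A immunoprecipitation (IP) of the series and the input library made beside it, 2 of 10 libraries. The genes were those with an RPKM (reads scaled to transcript length and library size) of at least 1 in the first input, which gave 12034 of 30419 genes and 844034 of 1510223 exon windows. RNA came from J1 cells, an established line of mouse embryonic stem cells kept without feeder cells. Total RNA was fragmented, precipitated with a rabbit polyclonal antibody against N6-methyladenosine, and sequenced as strand-specific dUTP libraries; the input was fragmented RNA taken before precipitation. The labels give no genotype for the first pair. The other 8 libraries were 2 pairs labelled mettl3 WT and 2 pairs labelled mettl3 KO, and they appear below only for the same genes and windows. The growth protocol also mentions culture without LIF for differentiation, and it does not say which libraries this concerned. With 1 IP library against 1 input library no test is possible: every value from the first pair has no replicate check, and counts past a fold are descriptions of these 2 libraries.

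N6-methyladenosine is the most common internal modification of messenger RNA. A writer complex with Mettl3 and Mettl14 as its core places it on adenosines in a short sequence context, mostly in long internal exons and around stop codons, and proteins with a YTH domain read it. In embryonic stem cells the mark has been studied on transcripts of pluripotency factors, whose turnover it affects. An antibody enriches fragments that carry the base, so a modified site appears as a hump of IP coverage over the input.

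The RNA carried stem cell markers. All 10 markers of embryonic stem cells were above an RPKM of 1 in the first input, from 52.3 for Zfp42 to 922 for Dppa5a. Their summed RPKM was 2833, against 3264 and 3354 in the WT inputs. Dppa5a (922 against 1825 and 1841) and Zfp42 (52.3 against 123 and 127) were lower in the first input. Every other marker of this list was higher there than in either WT input. Over the 12646 genes with an RPKM of at least 1 in the first input or the WT mean, RPKM also ran higher in the first input. The median log2 ratio of first to WT RPKM, with 1 added to each, was 0.54. Of 8 fibroblast markers 2 reached an RPKM of 1, Col1a1 at 1.06 and Thy1 at 8.32, while Lum and Dcn were at 0. For primitive endoderm 2 of 7 reached it, for mesoderm 2 of 6, for trophectoderm 2 of 6 and for neural cells 2 of 6, the last led by Tubb3 at 34.5. The sums of these lists were higher in the first input than in either WT input, for example 10.5 against 3.34 and 3.06 for fibroblasts and 4.88 against 1.29 and 1.82 for primitive endoderm. Whether a few cells of another type or a low level in all cells gave such values cannot be told apart in bulk RNA, and their part in the results below was not tested.

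The first pair was deeper than the others. Coverage moved in whole steps in every library, and total coverage over the step gave relative depths. The WT IPs had 0.159 and 0.0712 times that of the first IP, and the WT inputs 0.438 and 0.457 times that of the first input. In the expressed genes 4.46% of windows had no IP coverage in the first pair, against 22.0% and 44.1% in the WT pairs. The first input also stood apart from the WT inputs. Over the 12034 genes its mean coverage per gene (log scale) correlated with theirs at 0.847 and 0.845, while the WT inputs correlated at 0.998 with each other, which is a description across genes that share libraries. In the 4914 of these genes with an RPKM of at least 10 and at least 20 windows, input coverage within a gene was less even, with a median coefficient of variation over windows of 0.924 against 0.630 and 0.658. Rn45s, the ribosomal RNA precursor, took 14.2% of first-input coverage, against 2.66% and 2.15% in the WT inputs. Mettl3 itself had a mean input coverage of 12.9 in the first pair, 4.79 and 4.67 in the WT pairs and 3.14 and 3.38 in the KO pairs, so that its coverage was lower but not absent in the libraries labelled KO.

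The window tracks of Sox2 and Nanog show what enrichment looks like at this depth. A window is about 48.9 bases of exon, and its ratio is log2((IP coverage + 1)/(input coverage + 1)). Sox2, a transcription factor of the pluripotent state with a single exon of 50 windows, had a mean IP coverage of 1710 and a mean input coverage of 265, a gene ratio of 2.68. Its IP coverage stayed near the input over windows 4 to 10, for example 442 against 597 in window 5. It then climbed to 2269 against 418 in window 15 and to 13682 against 470 in window 28, and was below the input again by window 47, at 136 against 301. Those humps were its 2 enriched regions, runs of at least 2 neighbouring windows with a ratio of at least 2. They spanned 6 and 10 windows. The log2 ratios of mean IP to mean input coverage over them, with 1 added to each mean, were 2.68 and 4.42. The same windows had 2.86 and 3.29, and 5.62 and 5.62, in the WT pairs.

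Nanog, another core pluripotency factor, carried its enrichment in the last of 4 exons. In exon 1 the IP was below the input over most windows, with 314 against 595 in window 5. From the start of exon 4 it was above, with 663 against 255 in window 17, 1419 against 197 in window 20 and 2127 against 431 at the summit in window 24. In the last 3 windows it was below the input again, at 8.10 against 35.4 in window 27. The region covered 7 windows at a ratio of 2.48, and the WT pairs gave 2.70 and 2.72 there. Over the whole gene the IP mean was 445 and the input mean 226, and the gene ratio of 0.98 lay just under the bound of 1 used below.

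Pou5f1 and Mettl3 had no region. Pou5f1 encodes the pluripotency factor Oct4, and its IP mean was 170 against an input mean of 267, a ratio of −0.65. Exon 5 came closest to the input, at 961 against 1024 in window 19. Mettl3, the catalytic subunit of the writer, had means of 7.76 and 12.9 and a ratio of −0.67, with its IP only slightly above the input in windows 15 and 16, for example 21.8 against 17.9.

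**Figure D1:**
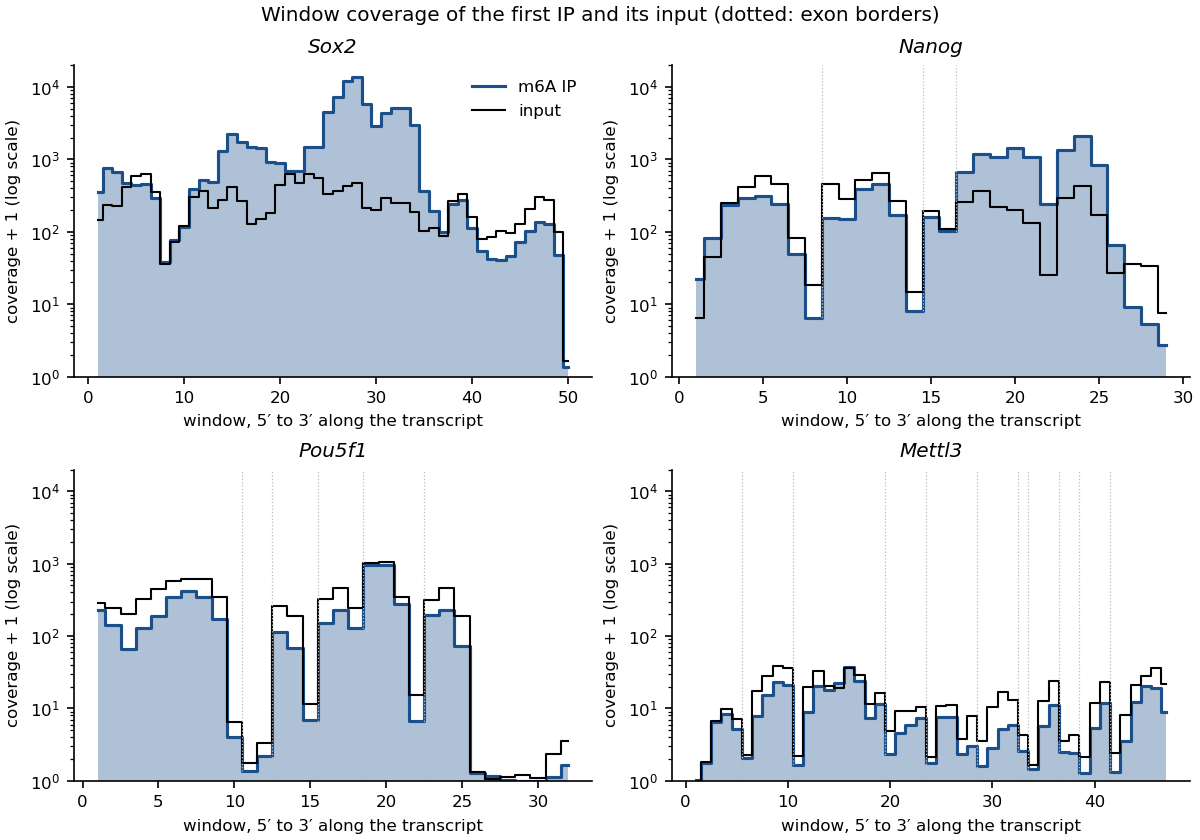
Coverage plus 1 per exon window (log axis) of the first IP (blue) and its input (black) along 4 transcripts, with windows ordered 5′ to 3′ and dotted lines at exon borders. In Sox2 the IP reaches 13682 at window 28 against an input of 470, in Nanog it exceeds the input in exon 4 except in its last 3 windows, and in Pou5f1 and Mettl3 it lies below the input in most windows.

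Across genes the ratio of mean IP to mean input coverage had a median of −0.04, with an interquartile range of −0.66 to 0.98 and a 5th to 95th percentile range of −1.21 to 2.23. A ratio of at least 1 was found in 2949 genes, 24.5% of the 12034, and a ratio of at most −1 in 1332 genes, 11.1%. The enriched genes had a median of 6 exons and 67 windows at an RPKM of 6.83. The depleted genes had 9 exons and 41 windows at an RPKM of 24.7, and all expressed genes 9 exons and 60 windows at 8.43. The rule itself bears on the RPKM of depleted genes. With 1 added, a gene with a mean input coverage below 1 cannot reach −1. Of genes at an RPKM of 1 to 2, 0.847% were depleted, against 37.4% at 50 or more. In the WT pairs 87.2% of the enriched genes were again at 1 or above in both, and 65.7% of the depleted genes at −1 or below in both. The medians over all expressed genes were higher there, at 0.33 and 0.32. The shares of all expressed genes past these bounds in the WT pairs are not given here, so the overlap has no base share beside it. The Spearman correlation of gene ratios with the WT pairs was 0.904 and 0.885, against 0.968 between the WT pairs, a description over 12034 genes in which each pair has its own input. The thresholds divide a continuum, with 265 genes within 0.05 of a ratio of 1. Around the lower bound 411 genes lay from −1.1 to −1 and 423 from −1 to −0.9. Genes with an RPKM from 1 to 1.1 had a median ratio of 0.22 (219 genes) and those from 0.9 to 1 one of 0.18 (227 genes).

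These counts depend on how a gene is summarised and on the input used. When the median coverage over windows replaced the mean, 310 genes were enriched and 2370 depleted, and with the mean of the window ratios 416 and 825. With the mean of the WT inputs as the denominator, a choice made after seeing the data, 4688 genes were enriched and 1097 depleted. The WT inputs were not rescaled for this. Their total coverage was 10122554 and 10428352, against 14060518 in the first input, and the median gene ratio became 0.57.

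The highest gene ratios, among genes with an RPKM of at least 10 and at least 10 windows, belonged to Gid8, Clhc1, Usf1, Sac3d1, Fem1c and Rps19bp1. Gid8 had an IP mean of 464 against an input mean of 20.3, a ratio of 4.45, and the WT pairs gave 3.29 and 3.13. Usf1, a transcription factor that binds E-boxes, had 192 against 9.47, a ratio of 4.20, and Jund, a subunit of the AP-1 transcription factor, had 468 against 32.9, a ratio of 3.79, with 2.06 and 2.77 in the WT pairs. Gemin7 (3.97), Ndnl2 (3.96), Exosc6 (3.88), Bag4 (3.70) and Gna12 (3.70) completed the 12. All 12 were above 2 in both WT pairs. Of these genes 9 had 1 region that lay in the last exon or in a single exon: Gid8, Usf1, Sac3d1, Rps19bp1, Gemin7, Ndnl2, Exosc6, Jund and Gna12.

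The lowest ratios belonged mostly to genes of few windows. Gng5, a G protein gamma subunit, had an IP mean of 4.29 against an input mean of 26.4, a ratio of −2.37. Gnb2l1, a scaffold protein of the small ribosomal subunit, had 209 against 847, a ratio of −2.01, and Rps20, a protein of the same subunit, had −2.01. The replication-dependent histone genes Hist1h4h and Hist1h3i had −2.28 and −2.02, on input means of 12 and 10.3. Rn45s had an IP mean of 4560 against 17068, a ratio of −1.90. Also low were 2900060B14Rik (−2.07), Mgst3 (−2.0), Npm3-ps1 (−1.93) and Atox1 (−1.86), and each of the genes named here was below −1 in both WT pairs.

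Gene groups were described by their counts against those of all expressed genes, of which 24.5% were enriched, 11.1% were depleted and 47.7% had a region. Immediate early genes, which respond to growth signals within minutes and encode short-lived transcripts, stood highest: 17 of 18 expressed members were enriched, none was depleted, the median ratio was 1.76 and all 18 had a region, against 47.7% of all expressed genes. Jund, Myc (3.35, IP 98.8 against input 8.78) and Jun (3.11) led, and Fos at 0.32 was the member below the bound. Zfp zinc finger genes, a large family of DNA-binding proteins with long last exons, had 169 of 280 members enriched and 1 depleted, a median of 1.16 and a region in 238. Their median RPKM was 4.19, and of all genes at an RPKM of 2 to 5, 2.01% were depleted. Zfp472 had the highest ratio, 3.86, and Zfp706 the lowest, −1.10.

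The m6A machinery spread over the whole range. In the writer complex 6 of 8 expressed members were enriched, with a median of 1.70. The adaptors Rbm15b (2.93) and Rbm15 (2.92) and the scaffold Wtap (2.56) were highest, while the core pair Mettl3 (−0.67) and Mettl14 (−0.23) had no region. Among readers and erasers 3 of 12 were enriched and 1 depleted, with a median of −0.24. The cytosolic readers Ythdf2, Ythdf3 and Ythdf1, which share a YTH domain, were the enriched members at 2.57, 1.86 and 1.74, each with 3 regions. Igf2bp1, an RNA-binding protein proposed as a reader, was lowest at −1.29 (IP 28.2 against input 70.4), and Ythdc2 had −0.87.

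Pluripotency genes spread over the whole range. Of 35 naive pluripotency genes 10 were enriched and 3 depleted, with a median of 0.48 and a region in 17, counts close to the shares of 24.5%, 11.1% and 47.7% over all expressed genes. Fgf4, a growth factor that primes cells for differentiation, had an IP mean of 794 against an input mean of 78.4, a ratio of 3.32, and Klf2, a Krüppel-like factor, had 1126 against 133, a ratio of 3.07. Dppa5a, an abundant short transcript, had 366 against 836, a ratio of −1.19, and Stat3, which carries the LIF signal, −1.17. Of 18 primed and formative genes 8 were enriched and none was depleted, with a median of 0.91 and a region in 13. Nodal (2.47), Foxd3 (2.15) and Pou3f1 (2.12) were highest, and Etv4 (−0.85) and Dnmt3b (−0.78) lowest. Chromatin regulators had 8 of 36 enriched, 4 depleted and 21 with a region, from Chd7 at 2.26 to Trim28, a corepressor of retroelements, at −1.50. The enriched and depleted counts of this list were also close to the shares over all expressed genes.

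Several housekeeping groups had fewer enriched and more depleted members than the 24.5% and 11.1% of all expressed genes. These shares also went with level: 7.40% of genes at an RPKM of 50 or more were enriched and 37.4% depleted. At 10 to 50 the shares were 21.8% and 16.5%. The groups had median RPKMs of 59.6 (oxidative phosphorylation), 65.0 (proteasome), 41.8 (glycolysis), 49.3 (translation factors) and 8.69 (histones). The part of level in their counts was not tested. Oxidative phosphorylation subunits had 1 of 75 enriched and 34 depleted (median −0.96, 4 with a region), proteasome subunits 1 of 37 and 13 (median −0.89, 3 with a region), glycolysis enzymes 2 of 20 and 8 (median −0.86, 3 with a region) and translation factors 5 of 60 and 19 (median −0.74, 18 with a region). Replication-dependent histones, whose transcripts lack introns and a poly(A) tail, had 0 of 52 enriched and 28 depleted, with a median of −1.06 and 1 gene with a region. Single members departed from their group: Psmd7, a proteasome lid subunit, had an IP mean of 338 against 81.0 and a region at 4.51, and the glucose transporter Slc2a1, listed with glycolysis, a ratio of 1.44 with 2 regions. Mitochondrial ribosomal proteins were close to the enriched and depleted shares over all expressed genes, with 16 of 73 enriched and 9 depleted. A region was found in 22 (30.1%), against 47.7% of all expressed genes, on a median of 25 windows against 60. Their median ratio was −0.18, against 0.72 and 0.69 in the WT pairs, and Mrps34 reached 3.69.

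Cytosolic ribosomal proteins had 1 of 82 enriched and 34 depleted, with a median of −0.86. Their RPKM in the first input needs care. Its median was 17.0, against 435 and 434 in the WT inputs, and in 64 of the 87 genes log2(RPKM + 1) was lower by 2 or more in the first input. Among all 12646 genes with an RPKM of at least 1 in the first input or the WT mean, 4.53% were lower by as much, but the deficit was common among abundant genes: of the 415 with a WT mean RPKM of at least 100, ribosomal ones included, 201 (48.4%) were lower by as much. The column headers of the first pair contain the word unique and those of the other 8 libraries do not; how reads with several positions were counted is not given in the sources used here. The 23 expressed ribosomal genes without this deficit had a median ratio of −1.35 with 16 depleted, and the WT pairs gave −1.13 and −1.29 for them. The 59 with it had −0.78, against −1.96 and −2.26 in the WT pairs.

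**Figure D2:**
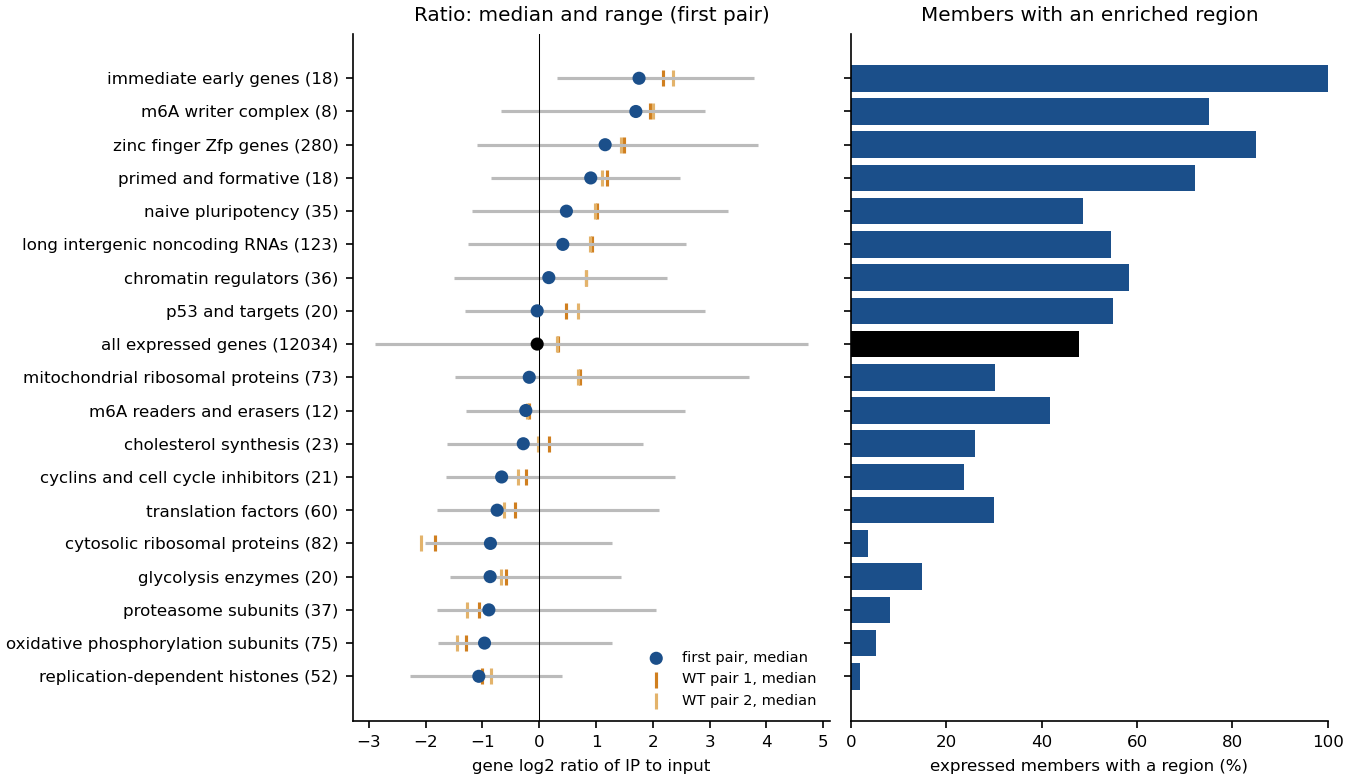
Gene ratio of IP to input by gene list (left) and the percentage of expressed members with an enriched region (right), with the number of expressed members in parentheses. Blue points are medians of the first pair, black is all expressed genes, grey lines run from the lowest to the highest member, and orange ticks are medians in the WT pairs; immediate early genes are highest at 1.76 and replication-dependent histones lowest at −1.06.

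At the level of windows 5.91% had a ratio of at least 2. Runs of such windows gave 9941 regions in 5745 genes, 47.7% of the expressed genes. The regions held 5.73% of the windows, 48.3% of the IP coverage and 4.81% of the input coverage. Their median mean ratio was 2.86 and the median summit, the window of highest IP coverage, had an IP coverage of 99.7 over an input of 9.45. Windows within 0.1 of the bound, on either side of it, amounted to 14.6% of the number past it.

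Regions were short and alike in width. The median length was 4 windows (interquartile range 3 to 6, longest 26), and the width at 50 percent of the summit IP coverage was 3 windows (2 to 4) in the last exon, in long internal exons, in the first exon and in single-exon genes alike. Averaged over 3046 summits with no other region within 20 windows, median IP coverage was 72.0% and 72.1% of the summit in the neighbouring windows, 30.3% and 28.8% at 2 windows, 11.6% and 9.97% at 4 windows and 1.79% and 1.89% at 15 windows. The median ratio went from 3.24 at the summit to −0.42 and −0.49 at 15 windows. The hump was nearly symmetric; genes without a matched strand entered in the order of the files. In the WT pairs, which had no part in choosing these windows, the ratio was 3.62 and 3.59 at the summit and −0.51 and −0.68 at 15 windows before it.

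**Figure D3:**
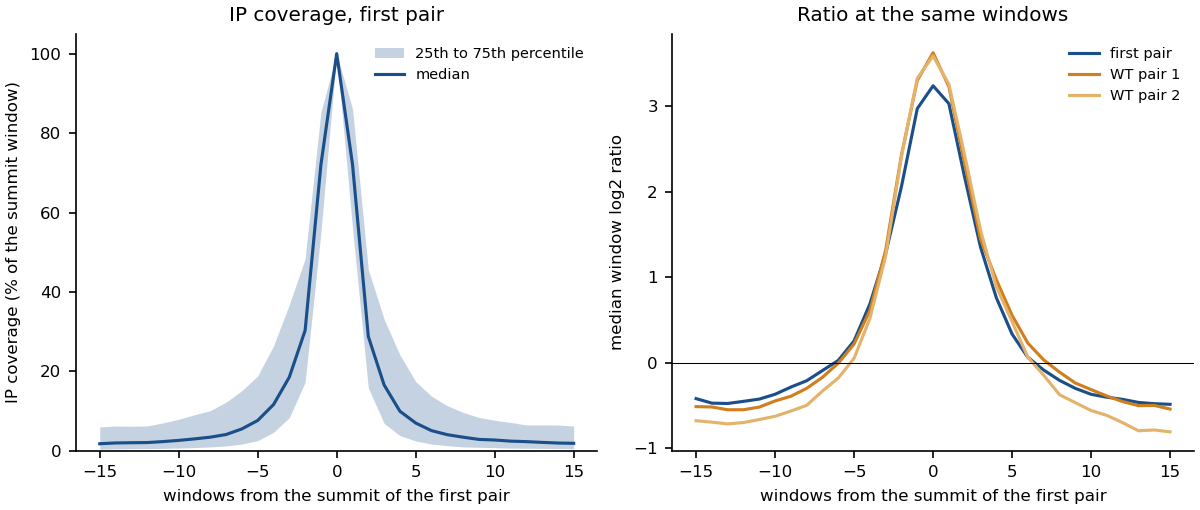
Left, IP coverage of the first pair as a percentage of the summit window, as the median and interquartile band over 3046 isolated summits; right, the median window log2 ratio at the same windows in the first pair and in the WT pairs. The x axis counts windows from the summit; coverage falls to about 72% in the neighbouring windows and below 2% at 15 windows.

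Among genes with an RPKM of at least 10 the longest regions spanned more than 20 windows. Rbm15 had one of 24 windows in its 62-window exon 1, at a ratio of 3.52, Irf2bpl one of 22 windows at 3.44, and Fzd5 and Zbtb22 one of 21 windows each, at 5.10 and 2.83. All were at 3 or above in both WT pairs.

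The highest regions exceeded a ratio of 5.6. Bag4, a chaperone regulator, had the highest at 6.15, with a summit of 6352 over 48.7, followed by Pcyox1l (6.05), Ddx6 (5.93), an RNA helicase of P-bodies, Zfp91 (5.92), Spen (5.76), Pak2 (5.70), Mettl6 (5.69), Ccnt2 (5.66), Fem1c (5.62) and Hexim1 (5.61). Ccnt2 and Hexim1 encode a subunit and an inhibitor of the elongation factor P-TEFb. Their regions had 5.12 and 5.19 in the WT pairs for Ccnt2 and 5.26 and 5.08 for Hexim1. For Bag4 the WT values were 4.66 and 4.79.

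At the bound of 2 most genes with a region had only 1. Of the 5745 genes 3206 had 1 region, 1519 had 2, 633 had 3, 228 had 4, 99 had 5 and 60 had 6 or more, so that 2539 (44.2%) had 2 or more. With a window bound of 1 that share was 51.2%, and with the mean of the WT inputs, not rescaled, in place of the first input it was 58.5%. The number went with transcript length: the median was 64 windows for genes with 1 region, 95 with 3, 182 with 6 or more, and 47 with none. Neighbouring summits of a gene lay a median of 14 windows apart (interquartile range 8 to 26, 4196 pairs), and 69.8% of pairs were in the same exon.

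Mll2, which encodes a histone H3 methyltransferase, had the most regions of the genes with an RPKM of at least 10. It had 11 in 425 windows at a gene ratio of 1.23. Of these 10 had their summit in long internal exons, with 3 in exon 35, 4 in exon 40 and 1 in each of exons 11, 12 and 49, and 1 was in the last exon, number 55. Ratios ran from 2.25 to 4.06. Spen, a transcriptional corepressor of the same family as Rbm15, had 8, of which 6 lay in its 161-window exon 12, the highest was in exon 3 (5.76) and 1 in the last exon (4.42). Fat1, a giant cadherin, had 8, of which 4 were in its long exon 1 and 1 at 4.28 in the last exon. The intergenic noncoding RNA guttman:linc1468.3 had 9, Gtf3c4, Nsd1 and Dst 7 each, and Fzd7, a Wnt receptor with 1 exon of 97 windows, 6. Dst had a gene ratio of 0.17 over 656 windows.

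Position within the transcript could be read for 8910 multi-exon genes whose strand was matched to RefSeq. They held 7388 summits. The last exon had 69.5% of summits (95% Clopper-Pearson interval 68.5 to 70.6, counting error only) but 43.5% of windows. Internal exons of at least 8 windows had 24.9% of summits (23.9 to 25.9) and 8.89% of windows. Shorter internal exons had 1.11% of summits (0.884 to 1.38) and 39.7% of windows, and the first exon 4.44% (3.98 to 4.93) and 7.88% of windows. By gene, 2881 genes had summits in the last exon alone, 586 in long internal exons alone and 569 in both.

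Exon length separated internal exons. The mean window ratio was −0.68 in exons of 1 to 2 windows, −0.81 at 3 to 4 and −0.69 at 5 to 7, and then 0.43 at 8 to 15, 0.89 at 16 to 31, 0.54 at 32 to 63 and 0.26 at 64 or more. The WT pairs had −1.12 and −1.40 at 3 to 4 windows and 1.02 and 0.96 at 16 to 31. The 3 shorter bins, with 29957, 46941 and 8161 exons, held 82 summits together. In contrast 622 summits fell in the 1954 exons of 8 to 15 windows and 717 in the 788 exons of 16 to 31.

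The same step appeared between genes. Where the longest internal exon was at most 3 windows 37.3% of 1503 genes had a region, and at 4 to 7 windows 38.8% of 4728. At 8 to 15 windows it was 62.4% of 1306 genes, and at 16 to 31 windows 85.4% of 663. The share with a summit in the last exon went only from 36.1% to 47.5% over these bins, while the share with one in a long internal exon went from 34.3% at 8 to 15 windows to 72.4% at 16 to 31. These genes were also longer, with medians of 38 and 97 windows in the shortest and the 16 to 31 window bins. Ratios differed with exon number too: genes with 2 exons had a median gene ratio of 1.25 and a region in 70.7%, genes with 6 to 10 exons −0.11 and 43.9%, and genes with 21 or more −0.24 and 52.0%. Genes with 1 exon had −0.57 and 33.2%, on a median of 18 windows.

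**Figure D4:**
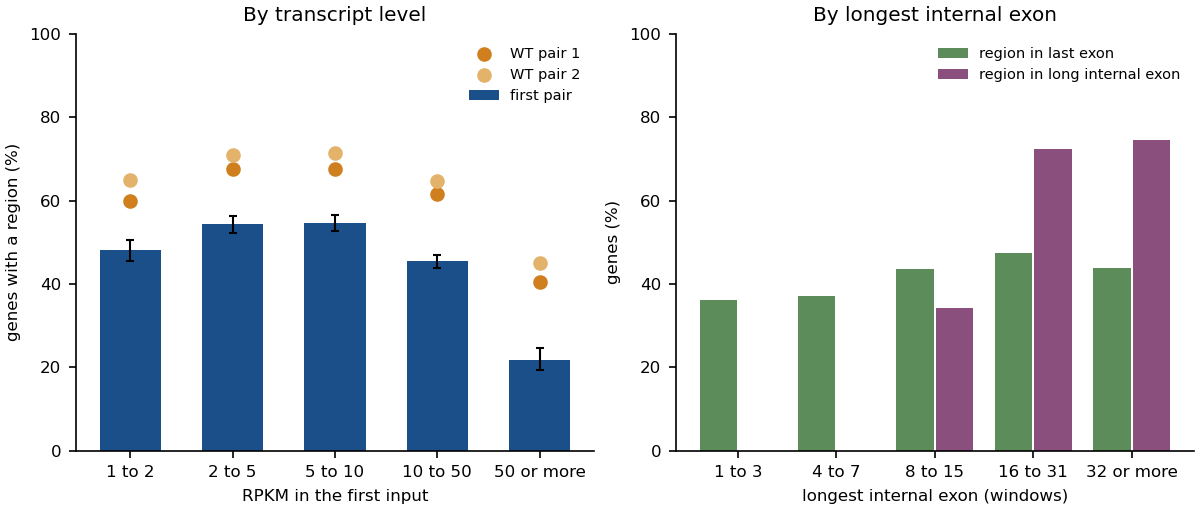
Left, percentage of expressed genes with a region by RPKM in the first input, as bars with 95% Clopper-Pearson intervals for the first pair and points for the same rule in the WT pairs; right, percentage of oriented genes with a summit in the last exon or in an internal exon of at least 8 windows, by the longest internal exon. The long-exon bars climb to 72.4% at 16 to 31 windows while the last-exon bars stay between 36.1% and 47.5%.

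In last exons and long internal exons the mean ratio was lower next to the splice junctions than a few windows in, with a smaller difference at the downstream junction. In 5044 last exons of at least 20 windows the mean ratio was −0.15 in the window next to the junction, 0.38 in window 3 and 1.06 in window 6, and it declined to −0.11 in window 20 and −0.35 in window 40. Peaks of 1.25 and 1.07 stood in the same window in the WT pairs. With windows of at least 5 in input coverage the values were −0.26 in window 1 and 1.12 in window 6. In 1152 internal exons of at least 16 windows the ratio went from −0.17 in window 1 to 1.12 in window 10, and from the other end it went from 0.27 in the last window through 0.47 in the next to 1.00 at window 5. Of these next-to-last windows 13.3% had a ratio of at least 2. In the first exon it was 0.11 in window 1 and −0.29 in window 7. Of 4294 summits in last exons of at least 20 windows, 4.42% fell in windows 1 to 3 and 45.5% in windows 1 to 10, which held 20.9% of the windows, and the median summit lay in window 12.

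**Figure D5:**
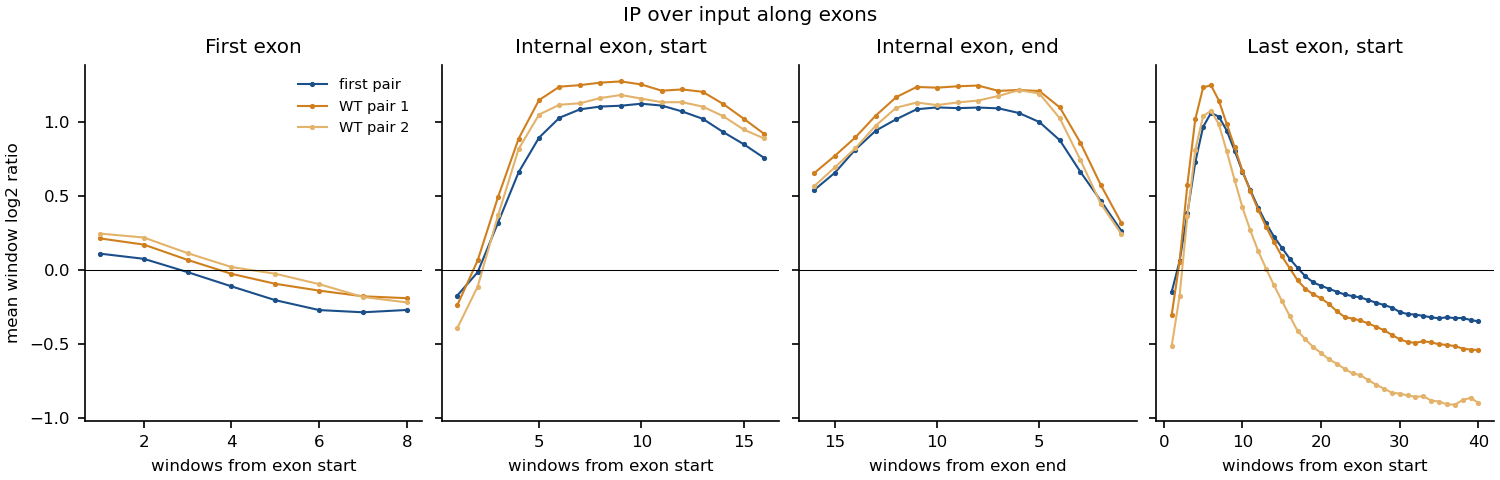
Mean window log2 ratio of IP to input by distance in windows from the exon border, for the first exon (1826 exons of at least 8 windows), internal exons of at least 16 windows from either end (1152 exons) and the last exon (5044 exons of at least 20 windows). Blue is the first pair and orange the WT pairs; the ratio is below 0 at the junction before the last exon and highest, at 1.06, in window 6.

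Long internal exons with the highest summits were exon 2 of Mettl6, a tRNA methyltransferase, at a summit ratio of 7.24 (1839 over 11.2) in the last window of the exon, exon 10 of the writer subunit gene Zc3h13 at 6.97 (1381 over 10.0), exon 3 of Spen at 6.79 (1175 over 9.62) and exon 4 of Tor1aip2 at 6.76 (2314 over 20.4). In the WT pairs the regions around them ranged from 4.42 to 5.45. Zc3h13 had no region in its last exon, and Wtap had regions both in its 90-window exon 7 (5.55) and in the last exon (3.95). Ythdf2 had 2 regions in its 32-window exon 4 (3.81 and 2.65) and 1 near the start of the last exon (2.54).

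Regions were also found on transcripts of low level. Of 1535 genes with an RPKM from 1 to 2, 738 had a region, 48.1% (45.6 to 50.6). The share was 54.3% at 2 to 5, 54.6% at 5 to 10, 45.4% at 10 to 50 and 21.9% (19.3 to 24.7) of the 946 genes at 50 or more. Among genes with at least 40 windows it was 59.2%, 62.5%, 61.1%, 54.1% and 32% in the same bins. Median region ratios were between 2.79 and 2.90 in all bins, which the bound of 2 on the same windows largely fixes, and the median summit IP coverage went from 25.5 to 806. In the lowest bin 11.4% of windows had no IP coverage in the first pair, against 48.2% and 68.3% in the WT pairs. The input behind a region there was thin, with a median of 1.68, and the share depended on the constant added: with 5 in place of 1 it was 30.0%.

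Among these genes Otub2, a deubiquitinase, had a region at 5.72 near the start of its last exon, where the summit was 900 over 5.90, with 5.59 and 5.08 in the WT pairs. Other high regions were those of 4632415L05Rik (5.57), Zfp619 (5.52), Tmem229b (5.31), Zfp449 (5.29), the semaphorin receptor Nrp2 (5.27) and AA414768 (5.09). The lowest value of the regions named here in a WT pair was 3.61, for Zfp449.

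The regions were enriched in the other pairs as well, with their own inputs. Their median ratio was 3.19 and 3.24 in the WT pairs, and 89.1% and 88.0% of the 9941 were at 2 or above there; 96.4% were at 1 or above in both. In the KO pairs the medians were 2.81 and 2.97, with 70.9% and 78.2% at 2 or above. The KO IPs had 0.0644 and 0.0606 times the depth of the first IP, and 57.2% and 46.6% of their windows were empty. Of the regions 4.04% and 1.44% had no IP coverage in them. The part of depth in the KO shares was not tested. The same rule applied to the WT pairs gave more regions, 16320 and 17941, in 7490 and 7933 genes. A region was found in all 3 pairs in 5559 genes, in the first alone in 45 and in both WT pairs but not the first in 1516. The WT pairs had higher gene medians, 0.33 and 0.32 against −0.04, and 22.0% and 44.1% of their windows were without IP coverage, so the counts are not on one scale.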

How the data were processed

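Reads of J1 libraries were aligned with TopHat 1.1.3 to mm9, per the submitters' processing notes. The deposited files hold, per the file headers, a coverage signal per exon window, scaled by an unstated factor, and a log2 winscore. Recomputing the log2 winscore from the coverage columns gave the authors' value within 1e-06 in all 1510223 windows, which shows which column is the IP. The deposited table gives RPKM per gene for the inputs, per the file headers. The RPKM values of the KO inputs enter no result given here. Read filters, the gene model and use of strand in counting: not given in the sources used here. Values of overlapping or antisense genes and of close copies are therefore uncertain.

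Gene ratios were log2((mean IP + 1)/(mean input + 1)) over all windows, with bounds of 1 and −1. Fold changes on this scale are understated for low genes. Regions were runs of at least 2 windows with a ratio of at least 2, and could cross exon joints. The ratio of a region was log2((mean IP + 1)/(mean input + 1)) over its windows. Exons are numbered in genomic order in the files. They were turned by strand from a RefSeq promoter table (GRCm38.p6), which matched 9130 of 12034 genes, 8508 by symbol and 622 by synonym. Genes without a match have no exon position in the text. Shares have 95% Clopper-Pearson intervals, which cover counting error only. Where labels name replicates, nothing says that they were separate cultures.

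Named genes were Mettl3, Pou5f1, Nanog and Sox2. Among genes with an RPKM and a window number of at least 10 they were also the 12 highest and 12 lowest gene ratios, the 8 with most regions and the 10 highest regions. In the range of RPKM 1 to 2 they were the 8 highest regions. The 4 longest regions and the 4 highest summits in long internal exons of genes with the same minimums, and the 3 highest and 2 lowest members of each of 18 lists were added. Other genes in the text were chosen after their values were seen. Members and lists were chosen with earlier results of these data known. Scripts were tested on simulated data (Python 3.11.15, numpy 2.4.6, pandas 2.3.3, scipy 1.17.1, matplotlib 3.10.9). Alternatives covered the added constant, the centring, the gene summary, the expression filter, the window bound, the run length and the input. A few genes that the rule picks are not reported here.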

Additional observations from a re-analysis of the deposited data

Results flagged for a closer look

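The ratio of IP to input lay past the bound of 1 on opposite sides in the first pair and in both WT pairs in 4 genes, and the difference was not tested. Mrps18b, a mitochondrial ribosomal protein, had −1.06 in the first pair (IP 8.85 over input 19.6) and 3.13 and 3.08 in the WT pairs, at an RPKM of 28.8, 30.5 and 32.1. Bri3 had −1.24 against 1.72 and 1.49, at an RPKM of 26.9, 21.1 and 22.3. Emc4, a subunit of the membrane protein insertase of the endoplasmic reticulum, had −1.32 against 1.34 and 1.40, at an RPKM of 20.6, 17.9 and 18.0. Rps13, a ribosomal protein, had 1.29 (IP 5.50 over input 1.66) against −2.14 and −2.67, and its RPKM was 2.08 in the first input but 358 and 371 in the WT inputs. Mrps18b, Bri3 and Emc4 had no region in the first pair, and Rps13 had 1 in its first exon at 2.13, where the WT pairs gave −0.04 and 0.07.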

How the results depend on the processing

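Of 145 recomputed values 65 stayed within the limit set for their kind, and 80 moved beyond it. The limit was 1.5 times for a count and the 95% interval for a share or a median. For the value of the regions in the WT pairs it was a difference of 0.5. The share with a region lay above that of all expressed genes in 8 of 18 lists, and also in 8 among genes of at least 40 windows, where the p53 list dropped out (53.3% against 56.8%) and mitochondrial ribosomal proteins came in (57.1%). With a constant of 0.5 windows at 2 or above were 6.44%, genes with a region 49.3%, those of them with 2 or more 45.8% and genes with a region at RPKM 1 to 2 52.5%. With 5 they were 4.0%, 39.6%, 37.2% and 30.0%, and 467 genes were depleted. Centring set the median gene ratio to 0 and windows to 6.07%. The median coverage per gene gave 310 enriched and 2370 depleted genes and a median of −0.58, and the mean of window ratios 416, 825 and −0.33. At an RPKM of at least 5 there were 1784 enriched genes, a median of −0.20, 5.68% of windows, 6090 regions, 45.5% of genes with a region, 41.8% of them with 2 or more, 67.3% of summits in the last exon and 27.1% in long internal exons. At 10 these were 1035, −0.34, 5.17%, 3633, 41.3%, 39.6%, 66.8% and 27.5%. Without the filter the median was 0, windows 3.74%, genes with a region 22.9%, those with 2 or more 41.5%, last-exon summits 70.7% and long internal summits 23.8%. A filter on mean input coverage gave 51.9% at RPKM 1 to 2.

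With a window bound of 1 there were 15504 regions of median length 5, in 63.1% of genes, 51.2% of them with 2 or more, 65.6% of summits in the last exon, and 63.6% of genes at RPKM 1 to 2. With 3 there were 5413 of length 3, in 32.1%, with 29.9%, 72.3% (long internal 23.5%) and 31.3%. The authors' winscore gave 56.4% of genes, 40.6% with 2 or more, 67.9% last and 23.9% long internal. Runs of 1 window gave 51.1% and 47.6%, and 51.9% at RPKM 1 to 2. Runs of 3 gave 42.0%, 37.4% and 41.8%, with a median length of 5. Merging gaps gave 38.9% with 2 or more, a long exon of 16 windows 16.5% of summits, and genes of at least 40 windows 59.2% at RPKM 1 to 2. The following alternatives were chosen after seeing the data. The mean of the WT inputs, not rescaled, gave 4688 enriched genes, a median of 0.57, 11.4% of windows and 18169 regions. It also gave a region in 63.7% of genes, 58.5% with 2 or more, 55.9% last and 59.2% at RPKM 1 to 2. An input of at least 1 in the region gave 46.8% of genes with a region, 42.7% with 2 or more and 44.0% at RPKM 1 to 2. The summit placed by ratio gave 69.6% last and 24.9% long internal. Regions of the first pair were also called anew at window bounds of 1 and 3 and measured in the WT pairs. The mean of the 2 WT-pair medians was 2.50 and 3.88, against 3.22 at the bound of 2, and the bound that picks the regions also changes. The causes were not tested.

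No paired analysis was possible because the first IP and its input are only 1 pair, and no test was made. Thin input limits ratios of low transcripts, and 1 library a side leaves every first-pair value without an error.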

Other observations

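Long intergenic noncoding RNAs had 40 of 123 expressed members enriched and 3 depleted, with a median of 0.42 and a region in 67 (54.5%), at a median RPKM of 2.69 and a median of 56 windows. Of all expressed genes 24.5% were enriched, 11.1% were depleted and 47.7% had a region. The depleted share was 2.01% among genes at an RPKM of 2 to 5. guttman:linc1336.3 (2.59), guttman:linc1408.3 (2.46) and guttman:linc1347.3 (2.42) were highest, and guttman:linc1780.3 (−1.26) and guttman:linc1747.3 (−1.25) lowest. Genes of the p53 pathway had 7 of 20 enriched and 2 depleted, with a median of −0.04, the same as that of all expressed genes. Its negative regulator Mdm2 had 2.56 and the targets Phlda3 and Ddit4 2.92 and 2.48, while Trp53 had −1.31 (IP 54.8 over input 137) against 0.09 and 0.29 in the WT pairs. Cyclins and cell cycle inhibitors had 2 of 21 enriched and 5 depleted, with the kinase inhibitor Cdkn2b highest at 2.39 on an input mean of 1.26 and the mitotic cyclin Ccnb1 lowest at −1.65. Cholesterol synthesis genes had 3 of 23 enriched and 4 depleted, with Fdps lowest at −1.62.

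Single-exon genes have no junction. In 163 of them with at least 20 windows and a matched strand the mean window ratio was 0.16 in window 1, 0.01 in window 4, 0.64 in window 10 and 1.54 in window 20, with 1.40 and 1.40 at window 20 in the WT pairs. Counted from the other end it was −0.03 in the last window and 0.73 at window 11. In last exons of multi-exon genes the mean was already highest in window 6.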
